A study of Mus musculus with 12 samples.

Results

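The genes described here belong to the ATF4 transcription programme and to the unfolded protein response of the endoplasmic reticulum (ER). The list held 40 genes, 23 assigned to an ATF4 arm and 17 to an ER arm, and was taken by name. It was chosen with earlier results of these data known, so it was not blind to them. A gene was kept when at least 10 estimated reads, summed over its transcripts, were present in at least 3 of the 12 libraries. By this rule 39 of the 40 genes were kept, among 13906 genes kept of 35865 in all. Vldlr, a lipoprotein receptor gene, was the exception, with at most 3.00 estimated reads in any library. All 17 ER arm genes and 22 of the 23 ATF4 arm genes were therefore tested.

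Secretory and membrane proteins fold in the ER with the help of chaperones. When unfolded proteins accumulate there, the membrane sensors PERK (gene Eif2ak3), IRE1 (Ern1) and ATF6 (Atf6) start the unfolded protein response. PERK phosphorylates the translation factor eIF2α, which lowers general protein synthesis while the mRNA of ATF4 is translated more. IRE1 splices the mRNA of Xbp1, and XBP1 and ATF6 together raise the genes for chaperones and for ER-associated degradation. ATF4 in turn raises genes for amino acid synthesis, transport and tRNA charging, and it also answers to amino acid shortage through another eIF2α kinase, GCN2. Macrophages secrete and take up large amounts of protein.

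The cells were RAW264.7, an established mouse macrophage line. Extracellular vesicles (EVs) from MS-1 mouse endothelial cells were electroporated with 1 of 3 microRNA mimics (miR-142-5p, or miR-183-5p, or else miR-222-3p) or a control, and were given to the macrophages at 3 µg protein/ml. RNA was taken after 48 h. Each of the 4 groups, called by its cargo (ctrl-EVs and, for example, miR-142-5p-EVs), held 3 libraries, whose titles carry the numbers 1, 2 and 3. Values of several groups are listed below in group order, which is control first and then the mimics by ascending microRNA number. The control cargo was cel-miR-67, a nematode microRNA, so all 12 libraries received electroporated endothelial EVs, and cells without EVs were not analysed here. The model is 1 cell line in culture with serum depleted of vesicles. What the title number stands for is not given in the sources used here. P-values measure the spread between these libraries. Between title numbers that is the spread left among libraries of the same number. Each number occurs as 1 set of 4 libraries, so those p-values do not measure the spread between repeats of a number.

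The libraries held 16294611 to 22974853 estimated reads. The 8 macrophage markers examined, among them Cd68, Csf1r and Itgam, each had at least 10 reads in every library, and their summed level was 811 to 1077 TPM (transcript abundance per length, scaled to 1 fixed sum in every library). Of 10 endothelial markers only 3 had that many reads in every library, Cldn5 was at 0 throughout, and the summed level was 15.0 to 34.2 TPM. The 4 libraries with title number 2 stood apart from the other 8. They were the shallowest (16294611 to 18927524 reads), their mitochondrial genes took 4.85% to 5.38% of reads against 3.45% to 4.59% elsewhere, and their retained-intron transcripts took 7.57% to 8.53% of TPM against 5.48% to 6.28%. Their summed macrophage markers were also lower, at 811 to 866 TPM against 971 to 1077, and so were their summed endothelial markers, at 15.0 to 17.6 TPM against 25.4 to 34.2. All of these quantities moved with the differences of number 2 from the other numbers. Between numbers 3 and 1 the mitochondrial share alone was apart (3.45% to 3.89% against 4.44% to 4.59%), and the ranges of the others overlapped. Their part in the differences below was not tested. Single macrophage markers did not all follow their sum. Against number 3, Adgre1 was higher in number 2 (log2 fold change 1.16, SE 0.17), while Fcgr1 (-2.41, SE 0.17) and Spi1 (-0.98, SE 0.13) were lower.

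The natural mouse forms of the 3 microRNAs are shown as the mature sequences of RefSeq (build GRCm38.p6), because the seed (bases 2 to 8, in capitals) sets which mRNAs each can pair with. They lie at chr11:87756867-87756887 on the plus strand, chr6:30169711-30169732 on the minus strand and chrX:19146901-19146923 on the minus strand. RefSeq names the first of them miR-142a-5p. Their seeds differ from each other. The synthetic mimics are not printed here, and the study lists that of miR-222-3p as shorter at its 3′ end than the form shown.
miR-142-5p: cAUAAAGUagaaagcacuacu
miR-183-5p: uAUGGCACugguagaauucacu
miR-222-3p: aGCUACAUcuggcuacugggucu

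A match to a seed in the 3′ untranslated region (UTR) of a gene's most abundant transcript was held by a few genes of both arms. The letters ACTTTAT, which pair with the seed of miR-142-5p, were present in 4 of 39 (Cebpg, Pdia6, Herpud1 and Sel1l), against 13.7% of the 13008 tested genes with an annotated 3′ UTR. The letters GTGCCAT, for miR-183-5p, were present in 4 (Stc2, Nars, Ern1 and Sel1l), against 8.9% of those genes. The letters ATGTAGC, for miR-222-3p, were present in 5 (Xbp1, Ern1, Atf6, Canx and Sel1l), against 9.2%. Sel1l, the scaffold of an ER ubiquitin ligase, was the member with matches to all 3 seeds, and its first match to each is shown here with the matching letters in capitals.
Sel1l, miR-142-5p match: gcaatgaaacgACTTTATcacttgtggagt
Sel1l, miR-183-5p match: tgtttgtttcaGTGCCATacggaatgacaa
Sel1l, miR-222-3p match: gtttgttcttcATGTAGCagacttgcccct

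The promoters of both arms carried different motifs. RefSeq promoter windows, from 250 bases before to 50 bases after the start, were matched for 34 of the 40 genes, and those of Aldh1l2, Cars, Nars, Wars, Atf6 and Manf were not among the entries. The ER stress response element (ERSE, the letters CCAAT and CCACG with 9 bases between them, on either strand), known as a site of ATF6 and XBP1 beside the factor NF-Y, was found in 7 of 15 ER arm genes and in 0 of 19 ATF4 arm genes. Of 27025 genes with a window, 0.137% held it. The 7 genes were Hspa5, Hsp90b1, Pdia6, Calr, Canx, Creld2 and Syvn1, and Hsp90b1 held it on both strands. The shorter ERSE-II (ATTGG and CCACG with 1 base between them) was found in Herpud1 alone of the 34, against 0.0444% of all genes. The element read by ATF4 with C/EBP factors (CARE, the letters TGATGNAA on either strand) was found in 7 of 19 ATF4 arm genes (Trib3, Chac1, Vldlr, Asns, Gars, Aars and Iars) and in 1 of 15 ER arm genes (Herpud1), against 4.51% of all genes. A core XBP1 element (TGACGTGG) was found in none of the 34, against 0.714%. These letter matches are a description of the windows, not evidence of binding.

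The sequences of 7 of these matches are given because they stand for the 3 motifs in genes whose values follow. Each window of 30 bases is read along the gene's strand in GRCm38.p6, with the motif in capitals. The window of Hspa5 lies at chr2:34772020-34772049, that of Calr at chr8:84847069-84847098, that of Pdia6 at chr12:17266486-17266515 and that of Herpud1 at chr8:94386368-94386397. Those of Trib3, Chac1 and Asns lie at chr2:152344028-152344057, chr2:119351038-119351067 and chr6:7693214-7693243.
Hspa5, ERSE: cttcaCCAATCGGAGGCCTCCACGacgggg
Calr, ERSE, reverse strand: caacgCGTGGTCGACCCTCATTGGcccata
Pdia6, ERSE: agagaCCAATGAAAGGCGGCCACGgcgtgg
Herpud1, ERSE-II: cgggcgctgATTGGGCCACGttggacactg
Trib3, CARE, reverse strand: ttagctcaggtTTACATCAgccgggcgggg
Chac1, CARE, reverse strand: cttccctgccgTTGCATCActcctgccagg
Asns, CARE: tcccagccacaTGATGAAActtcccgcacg

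Both arms were expressed in the macrophages given control EVs. Per transcript length, the highest levels in ctrl-EVs were those of Hspa5, the ER chaperone BiP, at 947 ± 690 TPM (SD, n = 3), and of Hsp90b1, the ER member of the HSP90 family, at 719 ± 588 TPM. Sars, the seryl-tRNA synthetase gene, followed at 622 ± 109 TPM, and Calr, the lectin chaperone calreticulin, at 555 ± 375 TPM. Pdia6 was at 424 ± 277 TPM, Nars at 414 ± 145 TPM and Canx at a mean of 407 TPM. Atf4 itself stood 8th of 39 at 367 ± 82.1 TPM, and its partner Ddit3 stood 10th at 303 ± 78.6 TPM. The middle of the order held further synthetases (mean Eprs 308, Gars 209, Iars 174, Aars 153, Wars 126 and Cars 104 TPM) and metabolic enzymes (mean Asns 248, Psat1 244, Shmt2 227, Phgdh 203 and Mthfd2 122 TPM). Manf (229 TPM), Xbp1 (179 TPM), Trib3 (168 TPM) and Pdia4 (121 TPM) lay in the same range. Mean levels below 100 TPM were those of Herpud1 (97.4 TPM), Psph (94.3 TPM), Atf6 (91.1 TPM), Edem1 (79.9 TPM), Sel1l (78.3 TPM), Sdf2l1 (76.6 TPM), Aldh1l2 (66.7 TPM), Cebpg (64.7 TPM), Stc2 (58.6 TPM), Creld2 (40.2 TPM), Ern1 (32.5 TPM) and Sesn2 (28.9 TPM). The lowest were Syvn1, the ubiquitin ligase of ER-associated degradation, at 19.2 ± 2.96 TPM, Chac1, a glutathione-degrading enzyme, at 16.9 ± 6.87 TPM, and Eif2ak3 at 14.8 ± 4.28 TPM. The ranges of neighbours in this order overlapped over the 3 libraries, so the order of neighbours is not firm. The wide SD of Hspa5 came from 1 library: it was at 532 to 1744 TPM, and the highest value was that of title number 2.

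The largest differences among the 12 libraries followed the title number and not the EV cargo. An arm's score was the mean over its genes of log2(normalised count + 1), each gene centred on its mean over the 12 libraries, with counts normalised for depth and transcript length. The ATF4 arm score was 0.27 to 0.35 in the 4 libraries with number 1, -0.71 to -0.41 in those with number 2 and 0.17 to 0.30 in those with number 3. The ER arm score was -0.32 to -0.19, 0.51 to 0.74 and -0.43 to -0.38 in the same order. In each of the 4 groups the number 2 library was thus the lowest for the ATF4 arm and the highest for the ER arm, with no overlap. Number 2 differed from number 1 by -0.88 for the ATF4 arm and 0.88 for the ER arm on the log2 scale, and from number 3 by -0.78 and 1.05. In bulk libraries fewer cells that express a gene and less RNA of it per cell cannot be told apart. The mean over all tested genes stayed between -0.04 and 0.02 in every library.

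**Figure D1:**
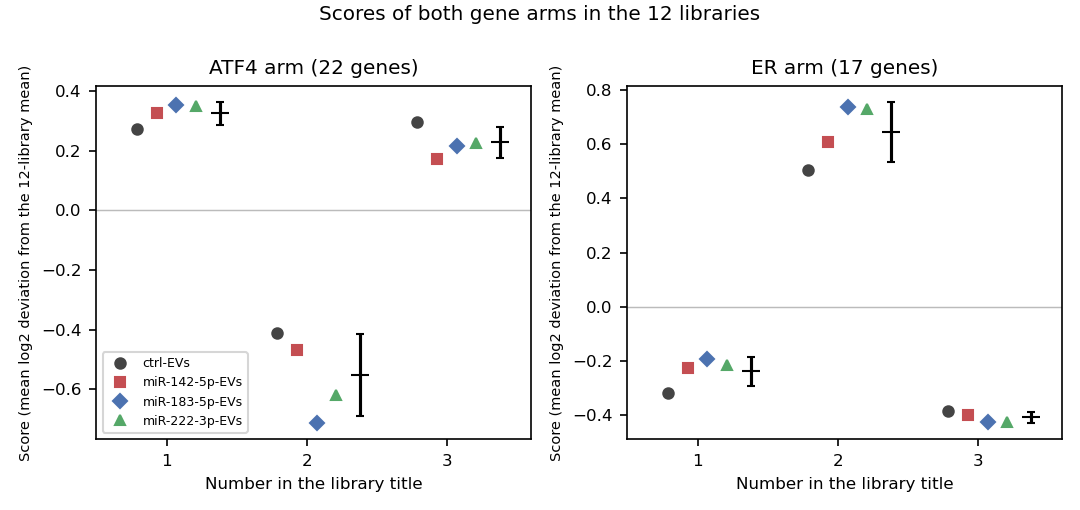
Scores of the ATF4 arm (22 genes, left) and the ER arm (17 genes, right) in each library, on a log2 scale centred on the 12-library mean, by the number in the library title, with symbols for the 4 groups and bars for the mean ± SD of the 4 libraries of a number. The number 2 libraries lie below 0 for the ATF4 arm and above 0.5 for the ER arm, apart from all others.

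Between title numbers 2 and 1, with the treatment group in the model, all 39 genes passed DESeq2's test at an adjusted p under 0.05, 15 higher and 24 lower in number 2. The background was 57.9% of all tested genes, 28.0% higher and 29.9% lower. The genes split by arm: 15 of 17 ER arm genes were higher (median log2 fold change 0.69) and 22 of 22 ATF4 arm genes were lower (median -0.75), against a median of 0.01 over all genes. Between numbers 2 and 3, 36 of 39 passed the test (background 61.8%, 30.7% higher and 31.0% lower), again 15 ER arm genes higher with a median of 0.95, and 20 ATF4 arm genes lower with a median of -0.83. The 4 libraries of number 2 lay above all 8 others for 15 ER arm genes (20.2% of all tested genes did so) and below all 8 others for 20 ATF4 arm genes and Ern1 (21.0%). A likelihood ratio test for any difference among the numbers called 38 of the 39, all but Atf6 (background 69.4%). Number 1 lay above all others for 6 genes (Stc2, Asns, Psat1, Psph, Shmt2 and Nars, background 5.15%) and below them for Herpud1 (3.41%), and number 3 above for 3 (Ddit3, Cebpg and Trib3, 6.84%) and below for 6 (Xbp1, Hspa5, Hsp90b1, Pdia4, Pdia6 and Sdf2l1, 6.69%). The median absolute log2 fold change between numbers 2 and 1 was 0.74 over the 39 genes and 0.45 over all tested genes.

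All 9 ER chaperones and folding enzymes were higher in number 2 than in numbers 1 and 3. Hspa5 (chr2:34771970-34777547, plus strand, GRCm38) had normalised counts of 53813, 60598, 77276 and 70977 in the number 2 libraries, in group order. In number 1 its 4 values were 16178 to 17794, and in number 3 they were 14979.9 to 15719. Every number 2 library therefore had over 3 times the count of every other library. The log2 fold change was 1.92 ± 0.09 (SE) against number 1 (DESeq2 adjusted p = 2.23e-91) and 2.08 ± 0.09 against number 3 (DESeq2 adjusted p = 7.2e-108). Hsp90b1 ran from 54013 to 78729 in number 2, from 14318 to 19123 in number 1 and from 12387 to 13302 in number 3. Its log2 fold changes were 1.90 ± 0.11 (DESeq2 adjusted p = 8.62e-68) and 2.33 ± 0.11 (DESeq2 adjusted p = 4.41e-102). Calr ran from 23041 to 33016 in number 2 and from 6654 to 8157 in the other 8 libraries, with log2 fold changes of 1.89 ± 0.11 against number 1 (DESeq2 adjusted p = 9.35e-65) and 1.94 ± 0.11 against number 3. Canx, the membrane-bound partner of calreticulin, differed by 0.65 ± 0.07 and 0.66 ± 0.07.

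The protein disulfide isomerases and the smaller ER proteins followed. Pdia6, which forms disulfide bonds in the ER, had 21729.5 to 28079.8 normalised counts in number 2, 7684 to 10225 in number 1 and 5822 to 6833 in number 3, and its log2 fold changes were 1.39 ± 0.10 (DESeq2 adjusted p = 7.21e-39) and 1.998 ± 0.10 (DESeq2 adjusted p = 1.72e-79). Pdia4, another isomerase, differed less, by 0.69 ± 0.08 and 1.09 ± 0.08. Manf, a secreted ER stress protein, differed by 1.40 ± 0.11 against number 1 (DESeq2 adjusted p = 1.88e-35), with 3609 to 4772 counts in number 2 and 1278 to 1799 in the other libraries. Sdf2l1, a cofactor of ER chaperones, differed by 1.25 ± 0.12 and 1.81 ± 0.12, and Creld2, an ER stress-inducible protein with isomerase activity, by 0.81 ± 0.11 and 1.04 ± 0.11. Hsp90b1 and Pdia6 each overlap a tested gene on the opposite strand, and Manf overlaps 2 tested genes, 1 of them on its own strand. The study names a stranded library kit, but use of strand in the counting is not stated, so reads of overlapping genes may be shared.

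All 4 genes of ER-associated degradation were also higher in number 2, by less. Herpud1, which recruits the degradation complex, had 2382 to 2612 counts in number 2 against 1674 to 1895 elsewhere (log2 fold change 0.54 ± 0.07 against number 1). Edem1, which marks misfolded glycoproteins, differed by 0.68 ± 0.09, Sel1l by 0.62 ± 0.10 and Syvn1 by 0.50 ± 0.10 against number 1. Against number 3 the 4 log2 fold changes were 0.46 to 0.66. None of these 4 genes passed the test between numbers 3 and 1.

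The sensors did not move together. Eif2ak3 was higher in number 2, with 1279 to 1642 counts against 686 to 799 in the other 8 libraries (log2 fold change 0.95 ± 0.10 against number 1, DESeq2 adjusted p = 4.15e-21). Ern1 was lower in number 2, with 1830 to 2802 counts against 2926 to 4283 elsewhere (-0.32 ± 0.13 against number 1, DESeq2 adjusted p = 0.0284, and -0.70 ± 0.13 against number 3). Atf6 overlapped between the numbers, with 8592 to 10198 counts in number 2 and 8506 to 11256 elsewhere, and differed from number 1 by -0.20 ± 0.08 on the log2 scale (DESeq2 adjusted p = 0.0361).

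Xbp1 (chr11:5520659-5525893, plus strand) had 5591, 5953, 6159.9 and 5881 normalised counts in the number 2 libraries, in group order. In number 1 the values were 4225, 4787, 5036 and 4455, and in number 3 they were 3709, 3521, 3184 and 3296. The 3 numbers did not overlap, with number 2 the highest and number 3 the lowest. Number 2 was above number 1 by 0.35 ± 0.08 (DESeq2 adjusted p = 7.63e-05) and above number 3 by 0.78 ± 0.08 (DESeq2 adjusted p = 9.46e-20), and number 3 was below number 1 (-0.43 ± 0.08, DESeq2 adjusted p = 5.17e-06).

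The 4 listed transcripts of Xbp1 did not contribute alike to its gene level. The main transcript Xbp1-201 (2129 nt) was at 133 to 144 TPM in number 2 and at 121 to 173 TPM in the others, and its share of the gene's TPM was 62.2% to 67.1% in number 2 against 80.1% to 86.3% elsewhere. The short protein-coding transcript Xbp1-204 (897 nt) was at 26.6 to 35.8 TPM in number 2, 5.97 to 8.12 TPM in number 1 and 3.06 to 4.75 TPM in number 3. The retained-intron transcript Xbp1-202 was at 30.01 to 36.6 TPM in number 2 and at 12.3 to 23.7 TPM in the others. None of the 12 ordered pairs of listed transcripts differed by the 26-base intron that IRE1 removes, so IRE1 splicing could not be read from these quantifications. The transcript shares are estimates of the quantifier from shared reads, and they were not tested.

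**Figure D2:**
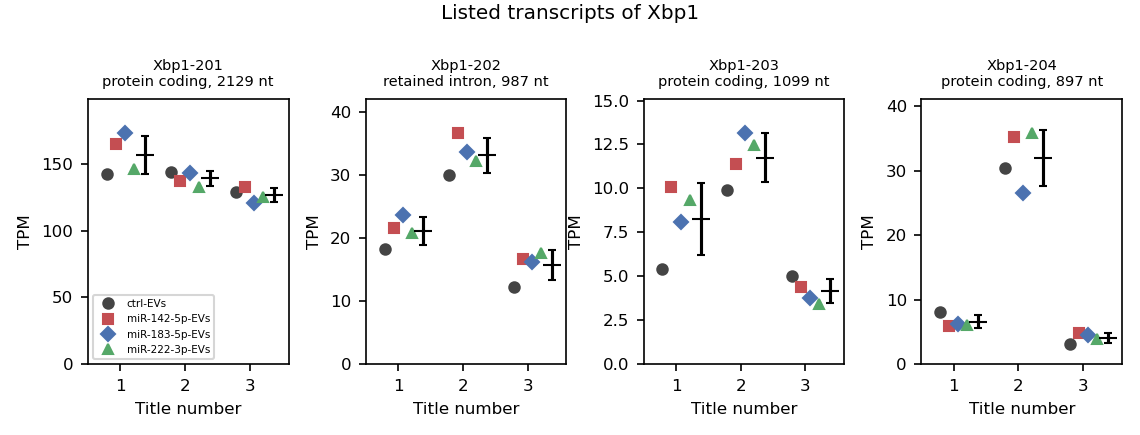
Abundance in TPM of the 4 listed transcripts of Xbp1 by title number, with symbols for the 4 groups and bars for the mean ± SD of the 4 libraries of a number. Xbp1-204 lies at 26.6 to 35.8 TPM in number 2 and at most at 8.12 TPM in all other libraries, while Xbp1-201 overlaps between the numbers.

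In the ATF4 arm the transcription factors came first. Atf4 (chr15:80255184-80257541, plus strand) had 6713, 6159.9, 5969 and 5760 normalised counts in the number 2 libraries, in group order. In number 1 it had 8565, 8975, 9535 and 9364, and in number 3 it had 10126, 8741, 8576 and 8661. All number 2 values were below the 8 others, while numbers 1 and 3 overlapped. The log2 fold change was -0.57 ± 0.08 against number 1 (DESeq2 adjusted p = 1.24e-11), -0.55 ± 0.08 against number 3 (DESeq2 adjusted p = 4.5e-11), and -0.02 ± 0.08 for number 3 against number 1 (DESeq2 adjusted p = 0.91). Because ATF4 is set mainly by translation, its mRNA does not give its protein level.

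The partners of ATF4 had a different pattern, with number 3 the highest. Ddit3 (chr10:127290774-127296288, plus strand), which encodes the stress factor CHOP, had 3171 to 3934 counts in number 3, 2036 to 2864 in number 1 and 1827 to 2471 in number 2. Its log2 fold change was 0.59 ± 0.08 for number 3 against number 1 (DESeq2 adjusted p = 3.51e-13), -0.80 ± 0.08 for number 2 against number 3 (DESeq2 adjusted p = 3.71e-24) and -0.20 ± 0.08 for number 2 against number 1 (DESeq2 adjusted p = 0.017). Numbers 1 and 2 overlapped, and without ctrl-EVs replicate 1, replicate 1 or 2 of miR-183-5p-EVs, or replicate 1 or 2 of miR-222-3p-EVs that last difference (-0.20 to -0.17) did not pass the test. Cebpg, a C/EBP partner of ATF4, ran from 4058 to 4604 in number 3, from 2657 to 3544 in number 1 and from 1907 to 2304 in number 2, so its 3 numbers did not overlap.

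Among the feedback, redox and secreted targets, all 4 tested genes were lower in number 2. Trib3, a pseudokinase that damps ATF4 and CHOP, had 2046, 1577, 688 and 1088 counts in number 2 in group order, 3990.3 to 4719 in number 1 and 5560.4 to 6449 in number 3. It gave the largest drop against number 3, -2.23 ± 0.27 (DESeq2 adjusted p = 1.54e-15), and -1.80 ± 0.27 against number 1 (DESeq2 adjusted p = 2.03e-10). Chac1 had 96.9 to 213 counts in number 2 and 384 to 494 in the other libraries (-1.73 ± 0.19 against number 1, DESeq2 adjusted p = 3.08e-19). Sesn2, an inhibitor of growth signalling on amino acid shortage, differed by -0.89 ± 0.12, and Stc2, a secreted glycoprotein, by -0.83 ± 0.09.

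The enzymes of serine, asparagine and one-carbon metabolism were all lower in number 2 than in number 1, and 6 of 7 were lower than in number 3. Psph, the last enzyme of serine synthesis, had 467 to 666 counts in number 2, 1753 to 2361 in number 1 and 996 to 1237 in number 3 (-1.95 ± 0.14 for number 2 against number 1, DESeq2 adjusted p = 2.72e-44). Its neighbour Cct6a lies on the opposite strand and overlaps it. Shmt2, the mitochondrial serine hydroxymethyltransferase, differed by -1.45 ± 0.12 (DESeq2 adjusted p = 1.99e-29), and Asns, asparagine synthetase, by -1.26 ± 0.09 (DESeq2 adjusted p = 2.63e-47), with 3269 to 3879 counts in number 2 and 6166 to 8925 elsewhere. Phgdh, which opens serine synthesis, differed by -0.96 ± 0.09, the mitochondrial folate enzymes Mthfd2 and Aldh1l2 by -0.73 ± 0.08 and -0.61 ± 0.10. Psat1, the middle enzyme of serine synthesis, was the exception: it was lower than in number 1 (-0.45 ± 0.09) but was not separated from number 3 (0.17 ± 0.09, DESeq2 adjusted p = 0.0795), and that sign turned on the TPM scale.

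All 8 aminoacyl-tRNA synthetases of the list, which charge tRNAs with amino acids in the cytosol, were lower in number 2 than in number 1, and 7 were lower than in number 3. Nars had 7146 to 8479 counts in number 2, 16281 to 18852 in number 1 and 14548 to 14817 in number 3 (-1.13 ± 0.07 against number 1, DESeq2 adjusted p = 8.64e-50). Wars differed by -0.85 ± 0.12, Iars by -0.77 ± 0.08, Eprs by -0.74 ± 0.08 and Gars by -0.69 ± 0.10. Cars, Aars and Sars differed least, by -0.49 ± 0.10, -0.46 ± 0.07 and -0.28 ± 0.06. Against number 3, Cars differed by -0.18 ± 0.10 and did not pass the test (DESeq2 adjusted p = 0.117).

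**Figure D3:**
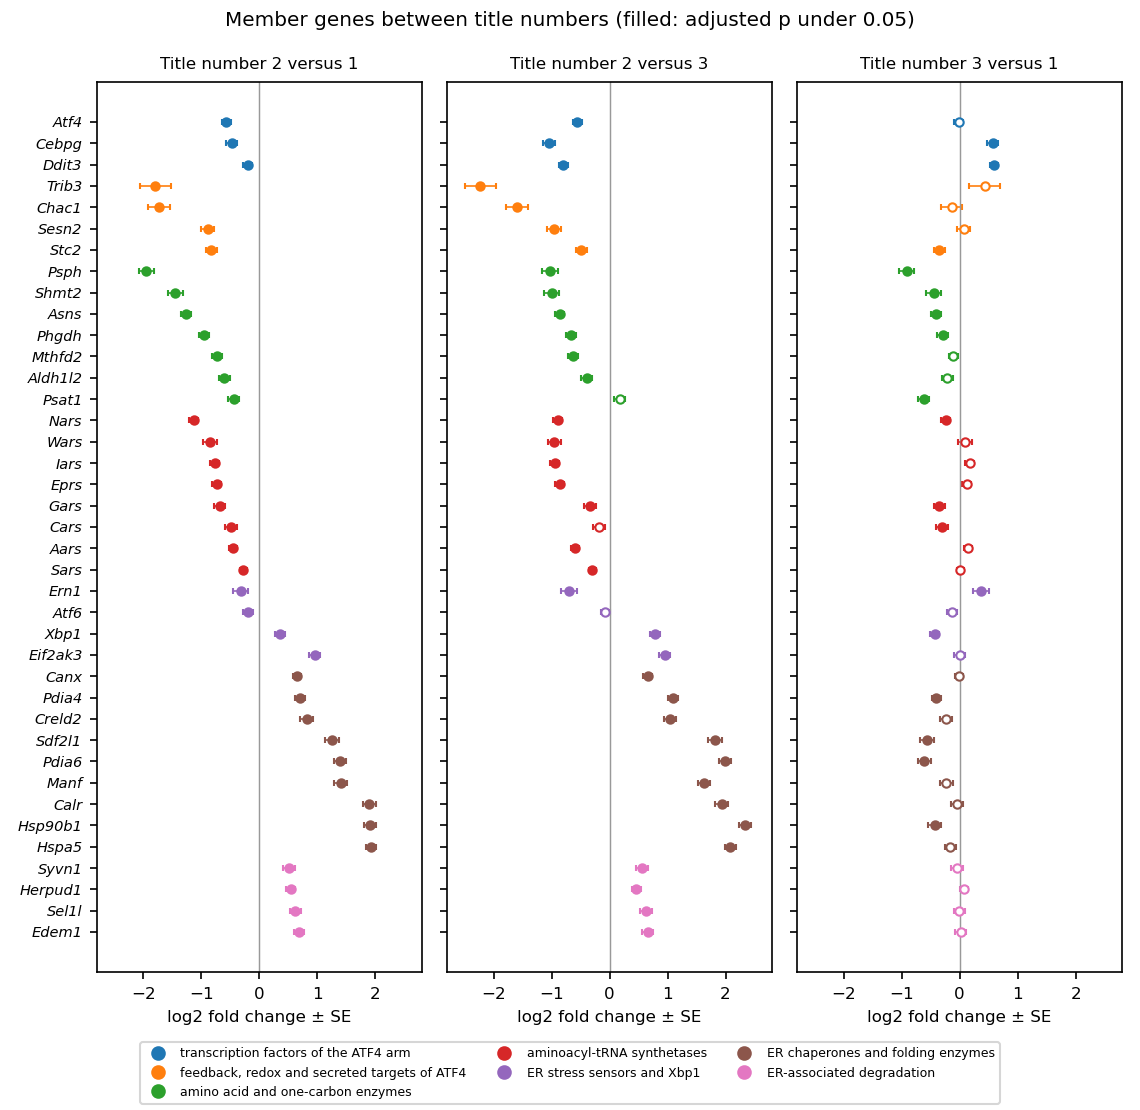
Log2 fold changes ± SE of the 39 genes between title numbers, from a DESeq2 fit with treatment group in the model, coloured by role and ordered within a role, with filled circles for an adjusted p under 0.05. In the left and middle panels the ATF4 arm lies left of 0 for all genes but Psat1 in the middle panel, and the chaperones reach 1.92 and 2.33, while in the right panel no gene passes 1 in either direction.

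Numbers 3 and 1 differed less. Of the 39 genes 17 passed the test (background 23.4%), 3 higher and 14 lower in number 3, against 10.5% higher and 12.9% lower of all tested genes. Cebpg (0.57 ± 0.10), Ddit3 and Ern1 (0.37 ± 0.13, DESeq2 adjusted p = 0.0271) were the higher genes. Ern1 was not called without replicate 1 or 3 of miR-142-5p-EVs, replicate 3 of miR-183-5p-EVs, or replicate 1 or 3 of miR-222-3p-EVs (0.26 to 0.35), nor by edgeR. The lower genes included Psph (-0.92 ± 0.13), Psat1 (-0.62 ± 0.09), Pdia6 (-0.61 ± 0.10), Sdf2l1 (-0.56 ± 0.12) and Shmt2 (-0.45 ± 0.12). The amino acid and one-carbon enzymes accounted for 5 of the 14 and the chaperones for 4. In a fit of these 8 libraries alone 18 of the 39 passed the test. The share of all tested genes in that fit is not given here, so this count stands without a background.

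On the TPM scale the median tested gene was lower in number 2 than in number 1 by 0.13 (log2) and than in number 3 by 0.20. Taken against that shift, all 39 genes kept the direction given above in both comparisons with number 2. Between numbers 3 and 1, the genes Eif2ak3, Canx, Sel1l and Atf4, which did not pass the test, had the other sign.

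Related genes that are not on the list are counted for the comparison of numbers 2 and 1, where 28.0% of all tested genes were higher and 29.9% lower. Of 31 tested other ATF4 targets 23 were lower and 1 was higher in number 2, with the cystine transporter Slc7a11 at -2.48 ± 0.12 and the cystathionine enzyme Cth at -2.29 ± 0.12. Of 33 other targets of the unfolded protein response 20 were higher and 5 lower, led by the ER chaperone Hyou1 (1.41 ± 0.07). Of 8 cytosolic synthetases outside the list 3 were lower and 0 higher, and of 17 mitochondrial ones 11 were lower and 2 higher. Among 12 genes that control eIF2α, 3 were higher and 6 lower. The higher ones included the kinase GCN2 (Eif2ak4, 1.09 ± 0.11), and the lower ones the kinase gene Eif2ak2 (-0.96 ± 0.12). Cytosolic heat shock genes were higher too (8 of 10, with 1 lower), with Hsph1 at 1.57 ± 0.12. Against number 3 only the largest called changes among the ATF4 targets and cytosolic synthetases are given here. Of the ATF4 targets, Cth (-2.26 ± 0.12) and Slc7a3 (-2.12 ± 0.54) were lower in number 2, but Ddit4 was higher (2.07 ± 0.15). Of the synthetases, Kars (0.55 ± 0.10) and Farsa (0.39 ± 0.11) were higher and Hars (-0.41 ± 0.09) was lower.

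The genes with ERSE letters in the promoter window could be compared with other holders of the motif. All 7 of the list were higher in number 2 than in number 1, with a median log2 fold change of 1.39. Of 7 other tested genes with the motif, 4 were higher and 1 was lower, with a median of 0.24. Dnajc3, an ER co-chaperone, was the highest of these at 1.09 ± 0.09, and Spats2l was the lowest at -4.02 ± 0.84. Against number 3 the 7 of the list were again all higher, with a median of 1.94. Of the 7 others 3 were then higher and 1 lower, with a median of 0.18. Between numbers 2 and 1, of the 7 tested genes of the list with CARE letters, the 6 of the ATF4 arm were lower and Herpud1 was higher. Of 321 other tested genes with that motif 128 were lower and 75 higher, with a median of -0.07.

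The question the study posed was how the delivered microRNAs change the macrophages, so the 3 mimic groups, and all miR-EVs pooled, were set against the control. No gene of either arm passed DESeq2's test in any of these comparisons when title number was left out of the model. The background was 0.00719% (1 gene) for miR-142-5p-EVs and for any difference among the 4 groups, and 0.0% for the other comparisons. The SE was 0.22 to 0.27 for Atf4 and 0.65 to 0.79 for Hspa5 on the log2 scale. A difference had to lie well beyond these errors to be detected. No gene of the list had miR-EV values apart from the ctrl-EV values in any group, against 2.7%, 3.2% and 2.69% of all tested genes in group order and 0.302% for all miR-EVs.

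Libraries of the same title number deviated together from their group means in all 18 pairs (correlation across genes 0.41 to 0.80), so the title number was also entered as a block. Ddit3 was then the only gene of the 39 to pass the test. In the 3 ctrl-EV libraries it had 2864, 2471 and 3934 normalised counts in numbers 1, 2 and 3. With miR-142-5p-EVs the 3 values were 2036, 1941 and 3171. They were 2183, 1827 and 3447 for miR-183-5p-EVs. The miR-222-3p-EV libraries held 2202, 1828 and 3379.9. Each of the 9 miR-EV libraries was below the control of its number, although the groups overlapped. With the block, the log2 fold change in miR-142-5p-EVs was -0.38 ± 0.09 (DESeq2 adjusted p = 0.0209), where 0.0575% of all tested genes were called, 0.0288% higher and 0.0288% lower. In miR-183-5p-EVs it was -0.34 ± 0.09 (DESeq2 adjusted p = 0.0374), where 0.41% were called, 0.316% higher and 0.0935% lower. In miR-222-3p-EVs it was -0.34 ± 0.09 and missed the threshold (DESeq2 adjusted p = 0.0586), where 0.0647% were called, 0.0431% higher and 0.0216% lower. For all miR-EVs it was -0.35 ± 0.07 (DESeq2 adjusted p = 0.00132), where 0.626% were called, 0.475% higher and 0.151% lower. Ddit3 was also the 1 gene of the list called for any difference among the 4 groups with the block (background 0.0863%). Without the block the same 4 differences were -0.37, -0.31, -0.32 and -0.34, all at a DESeq2 adjusted p of at least 0.9999.

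For all miR-EVs, Ddit3 passed the blocked DESeq2 test in each of the 12 fits that left out 1 library (-0.41 to -0.32, DESeq2 adjusted p from 0.0001457 to 0.0333). For miR-142-5p-EVs it passed in 2 of 6 such fits, those without ctrl-EVs replicate 3 or miR-142-5p-EVs replicate 2, and was lost without replicate 1 or 2 of ctrl-EVs or replicate 1 or 3 of the mimic group (log2 fold changes -0.44 to -0.34 over the 6 fits). For miR-183-5p-EVs it passed in 1 of 6, that without ctrl-EVs replicate 3, and was lost without any of the other 5 libraries (-0.40 to -0.30 over the 6). The call also depended on the tool. edgeR's quasi-likelihood test with the same block gave an adjusted p of 0.763, 0.342 and 0.667 in group order and of 0.193 for all miR-EVs. Without the number 2 libraries the blocked DESeq2 fit gave -0.33 for all miR-EVs (DESeq2 adjusted p = 0.0713), and no gene of the list was called. Without ctrl-EVs replicate 3 the blocked fit for all miR-EVs called 4 genes, Ddit3 (-0.41), Cebpg (-0.28), Hsp90b1 (0.36) and Pdia6 (0.32), and the same 4 for miR-183-5p-EVs, while 1.58% and 1.08% of all genes tested there were called (219 and 150 of 13862), against 87 and 57 genes with all libraries. The 3 comparisons share the ctrl-EV libraries, so 1 set of control values enters all of them. Ddit3 overlaps Mars on the opposite strand, and no match to any of the 3 seeds was found in the 3′ UTR of its most abundant transcript.

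**Figure D4:**
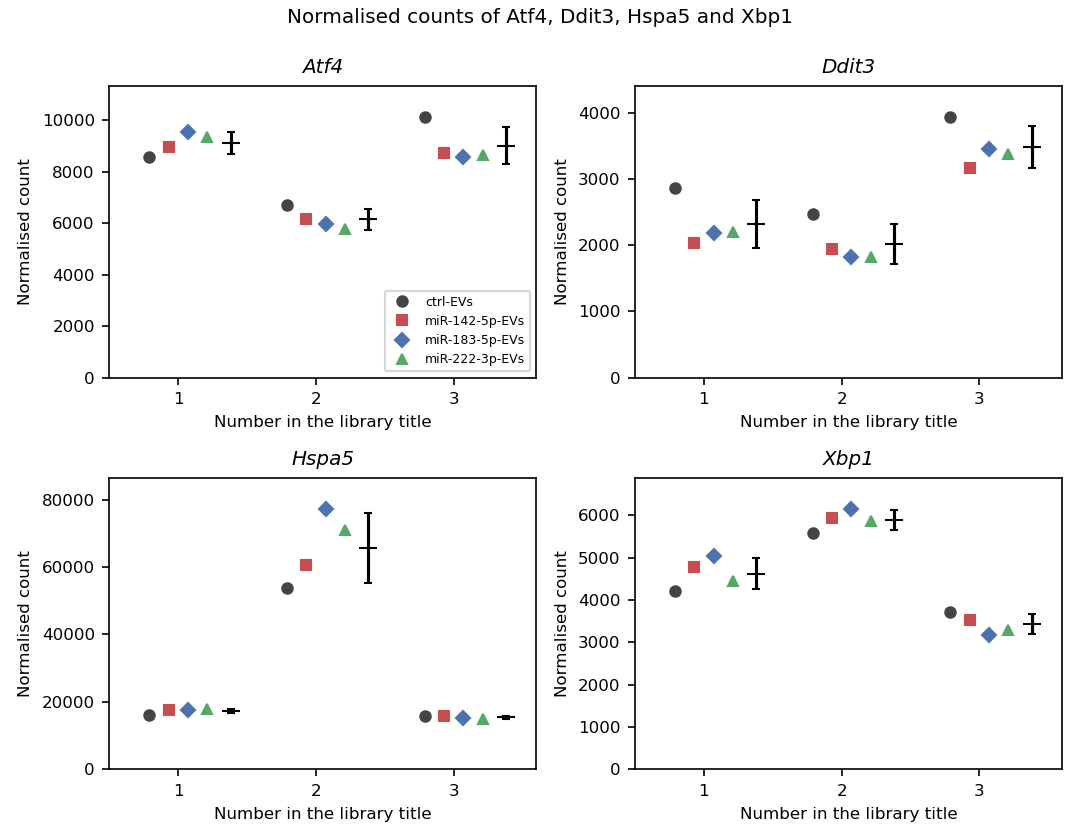
Normalised counts (linear axis from 0) of Atf4, Ddit3, Hspa5 and Xbp1 by title number, with symbols for the 4 groups and bars for the mean ± SD of the 4 libraries of a number. The ctrl-EV library is the highest of its number for Ddit3 each time, while for Atf4 and Xbp1 it is the highest of number 3 and not of number 1, and Hspa5 of number 2 lies at 53813 to 77276.

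Atf4, Hspa5 and Xbp1 did not pass the test with the block. In the 3 mimic groups, in group order, the blocked log2 fold changes were -0.09, -0.09 and -0.11 for Atf4 (SE 0.09), 0.09, 0.19 and 0.15 for Hspa5 (SE 0.11) and 0.06, 0.06 and -0.01 for Xbp1 (SE 0.10). For all miR-EVs they were -0.10 ± 0.08 for Atf4 (DESeq2 adjusted p = 0.622), 0.15 ± 0.09 for Hspa5 (DESeq2 adjusted p = 0.487) and 0.04 ± 0.08 for Xbp1 (DESeq2 adjusted p = 0.895). Hspa5 was above ctrl-EVs by 0.17 to 0.52 in the 3 miR-EV libraries of number 2, by 0.11 to 0.14 in number 1, and by -0.06 to 0.01 in number 3. Without number 2 the 3 groups of miR-EVs differed from ctrl-EVs by 0.03 to 0.06 for Hspa5 in the blocked fit.

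Set against the control of their own number, all 9 miR-EV libraries were lower for Ddit3, Trib3, Sars and Aars, which are 4 of the 22 ATF4 arm genes. No ATF4 arm gene and no ER arm gene was higher in all 9. Of all tested genes 3.85% were lower and 3.67% higher in all 9. Within single groups, the 3 miR-142-5p-EV libraries were lower for 4 and higher for 1 ATF4 arm gene (Nars) and higher for 4 ER arm genes (Eif2ak3, Hspa5, Canx and Sel1l), against 12.4% lower and 13.0% higher of all genes. The 3 miR-183-5p-EV libraries were lower for 5 ATF4 arm genes, Sesn2 being the further one, and higher for 3 ER arm genes (Canx, Edem1 and Sel1l), against 15.3% and 13.6%. The 3 miR-222-3p-EV libraries were lower for 4 ATF4 arm genes and higher for 2 ER arm genes (Eif2ak3 and Edem1), against 12.6% and 12.6%. The mean differences were -0.39 for Trib3, with single libraries from -1.57 to -0.03, and -0.11 for both Sars and Aars. With the block Trib3 had -0.39 ± 0.25 for all miR-EVs (DESeq2 adjusted p = 0.531). In the ER arm the largest positive means were those of Hsp90b1 (0.22, higher in 6 of 9 libraries), Sel1l (0.21, higher in 8 of 9) and Edem1 (0.21, higher in 8 of 9).

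The arm scores paired by number changed sign with the number. For the ATF4 arm the miR-EV libraries minus their ctrl-EV library gave 0.05 to 0.08 in number 1, -0.30 to -0.06 in number 2 and -0.12 to -0.07 in number 3. For the ER arm they gave 0.09 to 0.12, 0.10 to 0.24 and -0.04 to -0.02. The differences of group means were small beside the SD within a group: -0.04, -0.10 and -0.07 for the ATF4 arm in group order, where the SD over 3 libraries was 0.40 to 0.58, and 0.06, 0.11 and 0.09 for the ER arm, where it was 0.49 to 0.62.

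**Figure D5:**
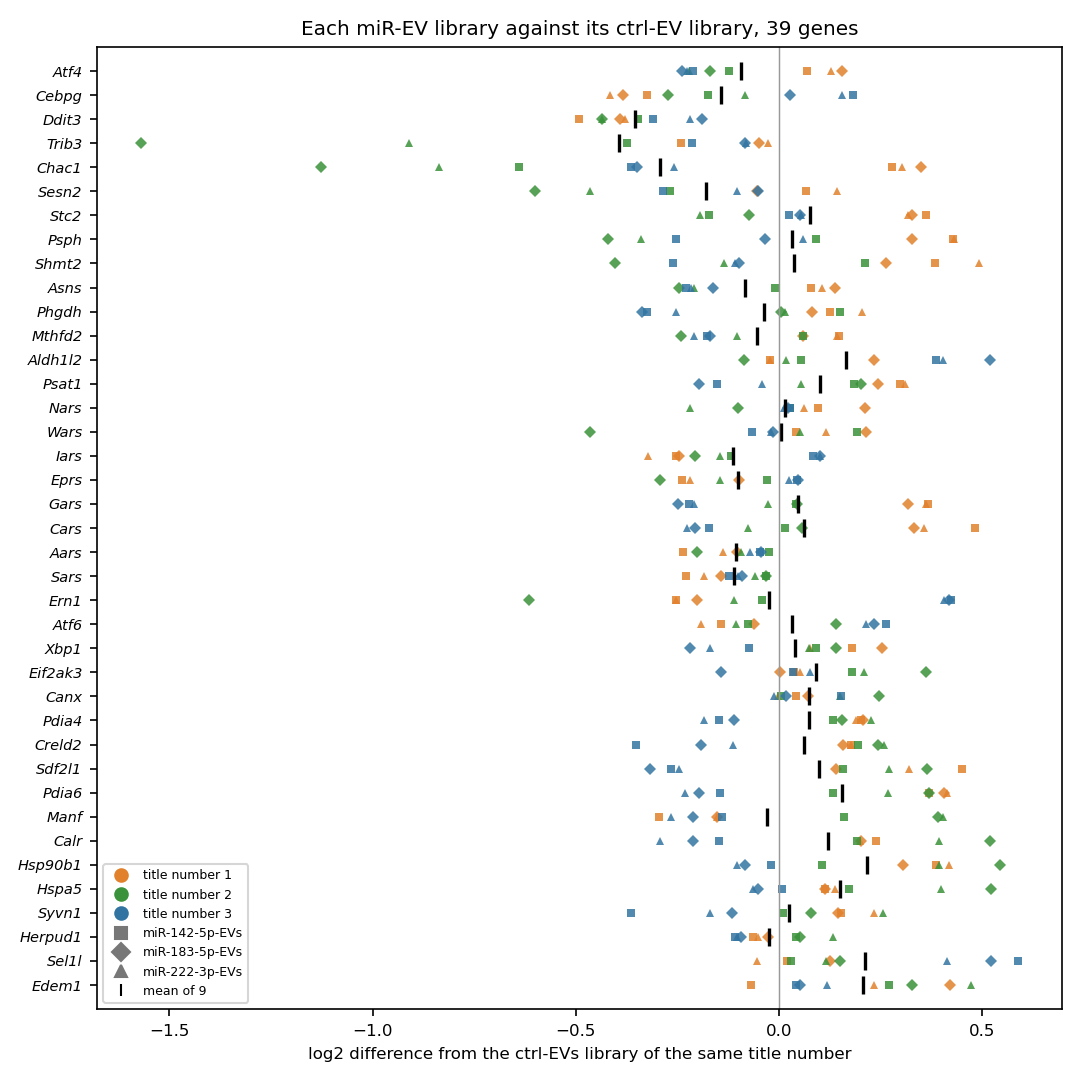
Difference in log2(normalised count + 1) of each of the 9 miR-EV libraries from the control with the same title number, for 39 genes, with colour for the number, symbol for the group and a black bar for the mean of 9. All 9 points lie left of 0 for Ddit3, Trib3, Sars and Aars only, and the points of Trib3 and Chac1 in number 2 spread furthest, down to -1.57 and -1.13.

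No gene with a seed match passed the test with the matching mimic. In the blocked fit the 4 matched genes for miR-142-5p had a median log2 fold change of 0.03, the 4 for miR-183-5p 0.07 and the 5 for miR-222-3p -0.002, with 0 called in each. Over all tested genes with a match the medians were 0.05, 0.04 and 0.03, with 1 of 1777, 11 of 1163 and 1 of 1200 called. Over tested genes with a 3′ UTR and no match they were -0.008, -0.015 and -0.006, with 5 of 11231, 45 of 11845 and 8 of 11808 called. Sel1l, with matches to all 3 seeds, had 0.21 ± 0.11, 0.26 ± 0.11 and 0.15 ± 0.11 in the respective groups, none past the test. Outside the list, Slc7a11 was the only 1 of the tested other ATF4 targets, counted above, to be called in the blocked fit. It was higher with all miR-EVs (0.46 ± 0.11, DESeq2 adjusted p = 0.00823), where 0.626% of all tested genes were called. With miR-222-3p-EVs it was just under the threshold (0.52 ± 0.13, DESeq2 adjusted p = 0.0497), where 0.0647% were called. How these 2 calls depend on single libraries or on the tool is not given here.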

How the data were processed

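Polyadenylated RNA was sequenced as 151-nt pairs in 12 libraries. Per the methods of the study, Salmon quantified the reads against Ensembl transcripts. The deposited estimated counts and the deposited TPM are the authors' values, per transcript and library. The processing notes list a human build, which does not match the mouse identifiers. Here transcripts were joined to genes by GENCODE vM21 (GRCm38), which held 98.2% of the 118783 listed. Estimated counts were summed per gene and rounded. DESeq2 1.42.0 in R 4.3.3 was run on the 13906 genes that reached 10 counts in 3 or more libraries, with an offset for transcript length and Benjamini-Hochberg adjustment (threshold 0.05). edgeR 4.0.16 was the alternative. The scripts were tested on simulated data.

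EV groups were compared without title number in the model and, as an alternative, with it as a block. Libraries of the same number deviated together from their group means (r 0.41 to 0.80 in 18 pairs of libraries, mean 0.61), so the numbers were taken as pairing the libraries, from the data alone. In 36 pairs of other numbers r was -0.63 to 0.23. Centring on the group mean lowers these values when the same-number ones are positive, so they add nothing to that choice. Title numbers, which have no order, were compared with treatment group in the model. A count of 3 equals 0.131 to 0.184 CPM in these libraries. Every gene of the list is named with its level. Folds are given for Atf4, Ddit3, Hspa5 and Xbp1 and for called genes, with the 5 largest in each direction in full where over 10 were called. Of other lists at most 3 called genes are named per comparison. The genes and lists were chosen with earlier results of these data known. The share of spliced Xbp1 was planned and could not be computed from the listed transcripts.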

Additional observations from a re-analysis of the deposited data

Results flagged for a closer look

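In 123 sets of 4 libraries of 1 title number (39 genes and both arm scores), 11 had a highest or lowest library far from its 3 neighbours. Chance gives about 1 in 20 for a single set. The sets share the same 12 libraries, and the scores are made of the same genes, so the count of 11 cannot be judged against that rate. Of the 11, 9 were ctrl-EV libraries, 6 of the sets were of number 1, 1 of number 2 and 4 of number 3. The ctrl-EV library of number 1 stood low for Stc2 (3291 normalised counts), Gars (7282), Pdia4 (3421), Pdia6 (7684) and Creld2 (573). The ctrl-EV library of number 3 stood high for Atf4 (10126), Gars (7694.5) and Herpud1 (1895) and low for Ern1 (3196). The miR-142-5p-EV library of number 2 stood high for Phgdh (3567), and the miR-183-5p-EV library of number 1 stood high for Aldh1l2 (7093).

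The difference of the miR-EV libraries from the ctrl-EV library had opposite signs in different title numbers, in 3 of 3 libraries each time. For Atf4 the mean log2 difference was 0.12 in number 1, -0.17 in number 2 and -0.23 in number 3. For Xbp1 it was 0.17, 0.10 and -0.155, for the ATF4 arm score 0.071, -0.19 and -0.09, and for the ER arm score 0.105, 0.19 and -0.033. These differences between numbers were not tested. Each number holds 1 ctrl-EV library, so its value enters all 3 differences of that number.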

How the results depend on the processing

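Of the EV comparisons, 0 genes of the list were called without the replicate block. With the block 1 gene, Ddit3, was called in 4 comparisons: miR-142-5p-EVs, all miR-EVs, any difference among the 4 groups, and miR-183-5p-EVs, and the block changed no other call on the list. The block without the length offset also gave 1 in each of these 4 comparisons. There 3, 54, 4 and 33 of all 13906 tested genes were called. The block with the GC trend removed gave 1 for miR-142-5p-EVs, all miR-EVs and the 4 groups. In those fits 13, 131 and 25 of all tested genes were called. For all miR-EVs the block with the length trend removed gave 1, with 48 of all tested genes called. The block with all miR-EVs as 1 group (added after seeing the data) gave 1, with 223 called. Over all genes the blocked fit called 8, 57, 9 and 87 in group order and for all miR-EVs, against 1, 0, 0 and 0. With 1 library left out, the genes of the list called without the block were 0 in every fit. With the block they ranged from 0 to 1, 0 to 4 and 0 to 2 in group order, from 1 to 4 for all miR-EVs and from 0 to 1 for any difference among the 4 groups.

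The fold changes of Atf4, Hspa5 and Xbp1 with miR-EVs passed no test. With 1 library left out and no block, Atf4 ran from -0.2322 to 0.0655, -0.2184 to 0.0978 and -0.2369 to 0.0897 in group order and from -0.2292 to 0.0610 for all miR-EVs. Hspa5 ran from -0.7814 to 0.9749, -0.8090 to 1.2036, -0.8020 to 1.1207 and -0.1331 to 1.0997. Xbp1 ran from -0.1173 to 0.2607, -0.1327 to 0.3113, -0.2189 to 0.1961 and -0.0644 to 0.2435. With the block the ranges were narrower. Atf4 ran from -0.1956 to -0.0268, -0.1906 to -0.0210, -0.2124 to -0.0431 and -0.1995 to -0.0303, all below 0. Hspa5 ran from -0.0106 to 0.1891, 0.0828 to 0.2882, 0.0487 to 0.2469 and 0.0419 to 0.2414. Xbp1 ran from -0.0036 to 0.1616, -0.0084 to 0.1554, -0.0762 to 0.0874 and -0.0294 to 0.1348. Xbp1 with miR-222-3p-EVs, 0.01 in the reported fit, was -0.0102 with the replicate block, -0.0103 by edgeR with the block, -0.0026 with TMM scaling, -0.0099 without the length offset and -0.0261 with the block and without the offset. With title numbers 1 and 3 only, chosen after seeing the data, it was -0.0322, and -0.05 with the block added. The cause of these changes was not tested.

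Between title numbers, the genes of the list called ranged with 1 library left out from 36 to 39 (2 versus 1), 36 to 38 (2 versus 3) and 13 to 21 (3 versus 1). The shares of all tested genes in those fits are not given here, so these counts stand without a background. Atf4 of number 3 versus 1 ran from -0.0941 to 0.0234. On log2(TPM + 1), the ATF4 arm score differed by -1.0448 (2 minus 1), -0.0158 (3 minus 1) and -1.0289 (2 minus 3), and the ER arm score by 0.6945, -0.0868 and 0.7813. Of the counts and scores recomputed, 378 stayed within 1.5 times the count or 1 SD of the score and 39 did not.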
